A study of Homo sapiens with 5 samples.

Results

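The genes described here are the ZNF zinc finger genes that RPE1 cells express. They were taken as all rows of the count table whose symbol is ZNF, a number and at most 1 letter, and whose counts in the 2 DMSO libraries summed to 1000 or more. This rule kept 98 of 26485 genes, and it used measured values, those of the DMSO libraries. Another 431 of the 529 ZNF symbols in the table were under the cutoff, 32 of them with no count in any library. RPE1 is an established human cell line from retinal pigment epithelium, labelled WT in all groups. RNA-seq was performed on 2 libraries of cells given DMSO, the solvent, on 2 libraries of cells given 0.2 μM doxorubicin and on 1 library of cells given 0.34 μM doxorubicin, each for 18 h. The comparison asks how the RNA levels of these genes differed after the drug. The doses are those of the sample labels, while the free-text description of the treatment writes larger numbers with the same unit.

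ZNF genes encode proteins built from zinc fingers, small folds held together by a zinc ion that mostly read DNA and in some proteins bind RNA or other proteins. The largest branch carries a KRAB domain, which recruits the co-repressor TRIM28 and, through it, the histone methyltransferase SETDB1 and heterochromatin proteins, and is known for silencing transposable elements. Many genes of this branch lie in clusters on chromosome 19. Doxorubicin intercalates into DNA and poisons topoisomerase II, and the DNA breaks that follow are known to activate p53.

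The counts on genes summed to between 23773061 and 36725345 per library. CDKN1A, the p53 target that encodes the cell cycle inhibitor p21, served as the check of the treatment, with 295 and 258 CPM (counts scaled to the library total, TMM-normalized) in DMSO against 2975, 2366 and 3358 CPM in the doxorubicin libraries. The epithelial keratins KRT8 and KRT18 and vimentin (VIM) had at least 6076 counts in every library, and KRT8 was higher after doxorubicin without overlap (log2 fold change 0.87, adjusted p = 0.0133 in edgeR). Of the 6 listed genes of differentiated retinal pigment epithelium, RPE65, RLBP1 and TYR had at most 8 counts in any library, MITF had 743 to 1503, and BEST1 (26 and 14 in DMSO against 86, 30 and 142) and PMEL (7 and 5 against 22, 32 and 46) were low and higher after doxorubicin. The blood gene PTPRC was also low and higher after doxorubicin, with 5 and 7 counts in DMSO against 25, 53 and 72, while the endothelial gene PECAM1 had 3 to 13 counts. The fibroblast collagen COL1A1 had 7513, 4885 and 5495 counts in DMSO replicate 1, 0.2 μM replicate 1 and the 0.34 μM library against 1647 and 1028 in replicates 2 of DMSO and 0.2 μM, and the part of these genes in the ZNF values was not tested. In bulk RNA, fewer cells of a kind and less RNA per cell cannot be told apart.

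Calls among the ZNF genes were counted beside the shares over all genes tested. The threshold, an adjusted p of 0.01, was that of the study's methods, which used it with DESeq2, while the main test here was edgeR. In edgeR's quasi-likelihood test on 3 doxorubicin against 2 DMSO libraries none of the 98 passed. Benjamini-Hochberg adjustment was over 14187 genes, and 4.02% of all genes tested passed. With DESeq2, the study's tool, 9 ZNF genes passed at the same adjusted p, 3 higher and 6 lower (14.1% of all genes, 6.37% higher and 7.72% lower). With limma voom 0 did (3.71%). At an unadjusted p under 0.05 edgeR gave 8 higher and 17 lower ZNF genes, 25 of 98, against 30.8% of all genes tested. At a looser adjusted p of 0.05 the same test gave 3 higher and 6 lower ZNF genes, where the shares over all genes were 6.1% and 7.48%. The smallest adjusted p of a ZNF gene was 0.0139 in edgeR's quasi-likelihood test, that of ZNF367. Among all genes that passed 0.01 the smallest absolute log2 fold change was 0.87, and 5 ZNF genes exceeded it. A p that missed the threshold with so few libraries does not show that a gene kept its level.

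The ZNF promoters that hold a sequence known from genes of the cell cycle are shown first, because the ZNF gene with the largest difference is among them. E2F factors bind words such as TTTCCCGC in promoters of genes that are transcribed as cells enter S phase. The words TTTCCCGC, TTTCGCGC, TTTGCCGC and TTTGGCGC were searched on both strands of the 250 bases before each gene start in RefSeq, build GRCh38.p14, a choice made after the values were seen. Windows were given for 81 of the 98 ZNF genes, and 9 of these genes (11.1%) had at least 1 word. Of the 108 windows of ZNF genes 10.2% held a word, against 4.46% of 8930 windows of the other genes with the same cutoff and 2.79% of all 35116 windows. Overlapping windows of a gene can hold the same word, as those of ZNF131 and of ZNF580 did, so that it is counted again. A share per gene was not taken for the other genes, and the difference was not tested. The word TTTCCCGC itself lay before ZNF367 (chr9:96418371-96418620, minus strand), ZNF644 (chr1:91022036-91022285, minus strand) and ZNF687 (chr1:151281272-151281521, plus strand). The windows are printed 5′ to 3′ on the strand of the gene, with the words, or their reverse complements, in capitals.
ZNF367: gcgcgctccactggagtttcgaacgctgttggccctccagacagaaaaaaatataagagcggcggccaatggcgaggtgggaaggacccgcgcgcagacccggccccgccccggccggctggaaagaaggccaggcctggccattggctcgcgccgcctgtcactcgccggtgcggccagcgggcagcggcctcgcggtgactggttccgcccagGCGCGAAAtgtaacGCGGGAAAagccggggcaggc
ZNF644: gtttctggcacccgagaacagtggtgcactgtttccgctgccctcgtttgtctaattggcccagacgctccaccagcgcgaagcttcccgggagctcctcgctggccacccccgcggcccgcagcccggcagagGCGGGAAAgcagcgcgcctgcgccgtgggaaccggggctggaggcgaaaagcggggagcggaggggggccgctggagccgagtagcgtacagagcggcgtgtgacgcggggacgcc
ZNF687: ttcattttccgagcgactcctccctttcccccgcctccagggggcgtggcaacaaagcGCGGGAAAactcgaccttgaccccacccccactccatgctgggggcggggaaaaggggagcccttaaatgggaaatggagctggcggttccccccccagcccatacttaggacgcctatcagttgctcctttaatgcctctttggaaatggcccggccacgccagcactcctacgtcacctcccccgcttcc
ZNF367 held 2 words, TTTCGCGC and TTTCCCGC, 35 and 21 bases before the start, while the word lay 116 bases before the start of ZNF644 and 192 before that of ZNF687. The log2 fold changes of the 3 genes were -3.25, -0.23 and 0.34, so that genes with the same word had very different values. The 9 genes with any word had a median log2 fold change of -0.25 and the 72 with none a median of -0.12. A match of letters is not a binding site, and binding was not measured here.

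Next, the ZNF genes were compared with the 7422 other genes that met the same cutoff. Of the ZNF genes 33 had a higher and 65 a lower fitted level after doxorubicin. The share lower was 66.3%, against 55.9% of the other genes and 48.9% of all genes tested. The cutoff used DMSO counts alone, so in both sets it keeps genes that fell and leaves out genes that rose from a low level. The median log2 fold change of the ZNF genes was -0.13, against -0.06 for the other genes and 0.01 for all genes tested. The spread was narrower. From the 10th to the 90th percentile the log2 fold changes of the ZNF genes ran from -0.56 to 0.35 and those of the other genes from -0.80 to 0.56. Within 0.5 of 0 on the log2 scale lay 79 ZNF genes (80.6%) and 69.4% of the other genes, and 5 ZNF genes (5.10%) differed by more than 2-fold, against 9.63% of the others. The 6449 other genes within the ZNF genes' range of DMSO counts had nearly the values of all 7422, with 69.9% within 0.5 and 9.44% beyond 2-fold. They were not matched by level, with a median of 50.3 CPM in DMSO against 31.4 CPM for the ZNF genes. Other zinc finger families, grouped by symbol, also had narrow spreads. Within 0.5 lay 89.5% of 19 ZBTB, 83.3% of 6 ZFP, 80% of 5 SP and 100% of 4 ZKSCAN or ZSCAN genes, but 70% of 10 KLF genes. In each of these families 0 genes were beyond 2-fold. No test was made of the difference between the sets, and the plot of both sets of log2 fold changes shows the steeper curve of the ZNF genes.

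**Figure D1:**
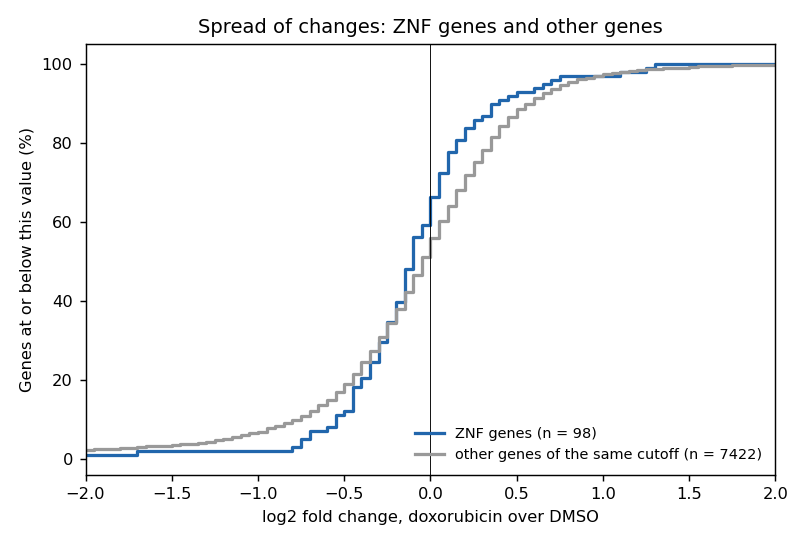
Cumulative share of genes (vertical axis, percent) at or below each log2 fold change of doxorubicin over DMSO (horizontal axis, cropped at -2 and 2) for the 98 ZNF genes and the 7422 other genes with the same cutoff. The ZNF curve is steeper, with 80.6% of its genes within 0.5 of 0 against 69.4% of the others.

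The median of the ZNF genes depended on how the genes were chosen. With ZNF genes chosen instead by a mean of at least 500 counts over all 5 libraries, 103 genes were kept and their median log2 fold change was -0.06, while that of the 7650 other genes chosen by the same mean was -0.01. The DMSO libraries also differed from each other, since the median ZNF gene was 0.18 lower in DMSO replicate 2 than in replicate 1 on the log2 scale, where the other genes had a median of 0.01. Without DMSO replicate 2 the median log2 fold change of the ZNF genes was -0.23, and without DMSO replicate 1 it was -0.07. The summed level of the 98 genes was 4669 and 4043 CPM in DMSO, 3970 and 4078 CPM at 0.2 μM and 4046 CPM at 0.34 μM, so that DMSO replicate 1 stood above the other 4 libraries. The groups did not overlap for 12 higher ZNF genes, where 24.3% of all genes tested were higher without overlap, and for 29 lower ones, where the share was 23.4%. Of the 7422 other genes with the same cutoff, 1596 were higher and 2202 lower without overlap. In both directions together these were 51.2% of the other genes, against 41.8% of the ZNF genes.

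**Figure D2:**
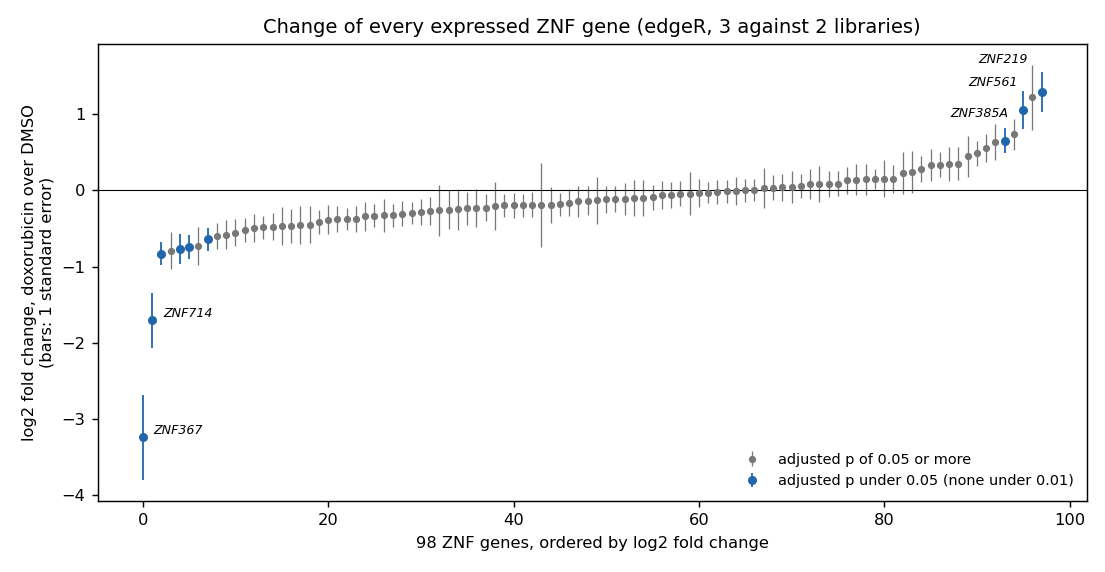
Log2 fold change of doxorubicin over DMSO (vertical axis) for each of the 98 ZNF genes in order (horizontal axis), with bars of 1 standard error from edgeR. Coloured points have an adjusted p under 0.05, 3 higher and 6 lower, and none is under 0.01. Most genes lie within 0.5 of 0, and ZNF367 and ZNF714 stand apart at the lower end.

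ZNF367, a zinc finger gene first described in fetal erythroid cells and listed here with the genes of cell division, had the largest difference. It lies at chr9:96385941-96418370 (GRCh38, as all positions here). Its level was 17.6 and 41.2 CPM in DMSO, 2.59 and 5.24 CPM at 0.2 μM and 1.54 CPM at 0.34 μM. All doxorubicin libraries were far below both DMSO libraries, and the groups did not overlap. The mean was 29.4 ± 16.7 CPM (SD, n = 2) in DMSO and 3.12 ± 1.91 CPM (SD, n = 3) after doxorubicin. The log2 fold change was -3.25 (SE 0.56, adjusted p = 0.0139 in edgeR), and DESeq2 gave an adjusted p of 1.62e-08. Over all alternatives its adjusted p ranged from 1.62e-08 to 0.0578.

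ZNF207 encodes BuGZ, a protein that binds microtubules and brings BUB3 to kinetochores, and was the most abundant ZNF gene by counts. Its level was 206 and 180 CPM in DMSO, 109 and 131 CPM at 0.2 μM and 107 CPM at 0.34 μM (chr17:32350157-32381885). The groups did not overlap. Its log2 fold change was -0.74 (SE 0.16), with an adjusted p of 0.0275 in edgeR's quasi-likelihood test and 0.000794 in DESeq2. ZNF655, the other gene listed with cell division, is known to interact with the exchange factor VAV1. It had 67.2 and 57.9 CPM in DMSO and 59.4, 66.3 and 63.2 CPM after doxorubicin, which overlapped, and a log2 fold change of 0.01 (SE 0.15).

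ZNF714 (chr19:21082203-21125094) belongs to a cluster of primate KRAB zinc finger genes in the pericentromeric part of chromosome 19. Its level was 24.03 and 40.6 CPM in DMSO, 7.66 and 14.6 CPM at 0.2 μM and 7.50 CPM at 0.34 μM, with no overlap. The log2 fold change was -1.71 (SE 0.36, adjusted p = 0.0277 in edgeR's quasi-likelihood test). Near-identical copies of such genes lie beside each other, and how reads that map to several places were treated was not given in the sources used here, so its count is uncertain.

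Among the remaining lower genes with the smallest p, ZNF618 encodes a partner of UHRF2, a reader of modified cytosine. Its level was 63.6 and 71.5 CPM in DMSO against 37.0, 41.3 and 35.7 CPM in the doxorubicin libraries (chr9:113876309-114056593), a log2 fold change of -0.83 (SE 0.15, adjusted p = 0.0160 in edgeR). ZNF639, known as ZASC1 from a region amplified in squamous carcinomas, had 32.7 and 33.5 CPM in DMSO against 20.6, 22.8 and 20.3 CPM after doxorubicin (chr3:179322876-179338583). Its log2 fold change was -0.64 (SE 0.15, adjusted p = 0.0380 in edgeR). ZNF480, a KRAB gene of chromosome 19 (chr19:52297169-52325922), had 36.9 and 27.1 CPM in DMSO against 18.1, 21.3 and 17.0 CPM, a log2 fold change of -0.77 (SE 0.20, adjusted p = 0.0494 in edgeR). In all 3 genes every doxorubicin library lay below every DMSO library, and none of the 3 overlaps another annotated gene.

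Of the higher genes, ZNF385A comes first by its role. It encodes HZF, a product of a p53 target gene that is known to bind p53 and direct it to promoters of cell cycle arrest genes. Its level was 32.4 and 19.6 CPM in DMSO, 48.4 and 52.5 CPM at 0.2 μM and 61.1 CPM at 0.34 μM (chr12:54369136-54391298), with no overlap. The log2 fold change was 1.05 (SE 0.25, adjusted p = 0.0382 in edgeR's quasi-likelihood test), and DESeq2 gave an adjusted p of 0.00122. ZNF365, another gene with a known role in genome stability after DNA damage, had 20.6 and 18.2 CPM in DMSO against 28.8, 24.95 and 27.8 CPM (chr10:62374369-62480285). Its log2 fold change was 0.49 (SE 0.17, adjusted p = 0.0973 in edgeR). ZNF451, a SUMO ligase that modifies topoisomerase II trapped on DNA, had 35.6 and 44.02 CPM in DMSO against 37.4, 50.1 and 38.9 CPM, which overlapped, with a log2 fold change of 0.08 (SE 0.20). These were 3 of the 9 genes listed for genome stability and p53, and the other 6 (ZNF350, ZNF668, ZNF830, ZNF432, ZNF420 and ZNF346) were under the count cutoff.

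ZNF219, known as a partner of SOX9 in cartilage, had the largest higher value. Its level was 23.4 and 17.4 CPM in DMSO, 51.9 and 37.3 CPM at 0.2 μM and 60.6 CPM at 0.34 μM (chr14:21090077-21104722). The groups did not overlap, and the log2 fold change was 1.29 (SE 0.26, adjusted p = 0.0225 in edgeR's quasi-likelihood test). The gene overlaps ARHGEF40 and TMEM253, and the strand setting of the counting was not given in the sources used here, so its count could include their reads. ZNF436, which overlaps its antisense gene ZNF436-AS1, had 21.7 and 22.3 CPM in DMSO against 33.2, 38.7 and 32.0 CPM, a log2 fold change of 0.66 (SE 0.16, adjusted p = 0.0456 in edgeR). ZNF316, a KRAB gene, had 18.4 and 25.4 CPM in DMSO against 39.2, 31.9 and 38.6 CPM, a log2 fold change of 0.74 (SE 0.21, adjusted p = 0.0596 in edgeR). In both genes all doxorubicin libraries were above both DMSO libraries.

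**Figure D3:**
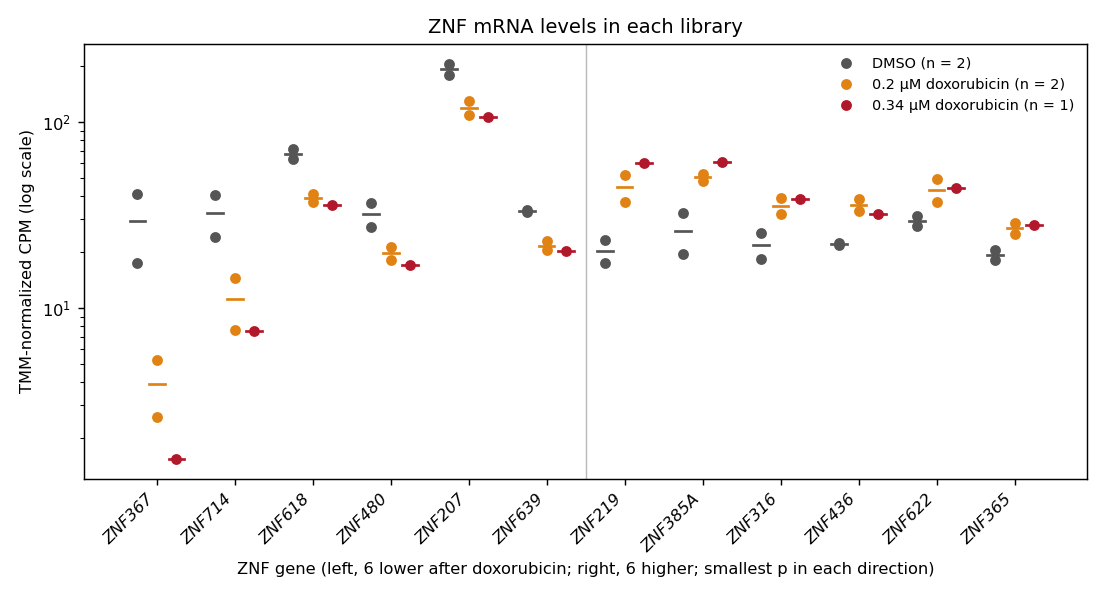
Level of the 6 lower (left) and 6 higher (right) ZNF genes with the smallest p, in TMM-normalized CPM on a log axis, with 1 point per library and a line at the mean of each condition (DMSO n = 2, 0.2 μM n = 2, 0.34 μM n = 1). In each of these 12 genes no doxorubicin library overlaps a DMSO library, and ZNF367 has the widest gap. The genes were chosen by p from these same libraries, so the lack of overlap is not separate evidence. Of all genes tested 47.7% had no overlap.

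Next, the ZNF genes with known roles in RNA and translation were described, 5 of the 6 listed, since ZNF593 was under the cutoff. ZNF622, a factor of large ribosomal subunit maturation, had 31.4 and 27.7 CPM in DMSO against 37.2, 49.3 and 43.98 CPM after doxorubicin, without overlap. Its log2 fold change was 0.56 (SE 0.18, adjusted p = 0.0891 in edgeR). ZNF326, a subunit of the DBIRD complex that links transcript elongation to splicing, was at 59.6 and 42.7 CPM against 33.0, 38.4 and 31.4 CPM, a log2 fold change of -0.58 (SE 0.20, adjusted p = 0.0978 in edgeR). ZNF638, a nuclear protein that takes part in silencing of unintegrated retroviral DNA with the HUSH complex, had a log2 fold change of -0.33 (SE 0.15). ZNF706 and ZNF598, the latter a ubiquitin ligase that senses collided ribosomes, had log2 fold changes of -0.19 (SE 0.16) and -0.16 (SE 0.18). None of the 5 passed 0.05 after adjustment in edgeR, where 13.6% of all genes tested did.

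Of the 16 genes listed for promoter and chromatin binding 13 met the cutoff, and ZNF143, ZNF76 and ZNF274 did not. The log2 fold changes of the 13 lay between -0.60 (ZNF609) and 0.45 (ZNF281), 9 lower and 4 higher, with a median of -0.19. None passed an adjusted p of 0.05 in edgeR, where 13.6% of all genes tested did, a share that gives few calls among 13 genes. ZNF609, a partner of the cohesin loader NIPBL and the Integrator complex, was at 141 and 106 CPM in DMSO against 87.5, 73.7 and 83.9 CPM, with no overlap and an adjusted p of 0.0658 in edgeR. ZNF281, a GC-box binding factor of stem cells, was at 97.2 and 53.7 CPM in DMSO against 109, 88.6 and 111 CPM, so that the DMSO libraries differed by more than the doxorubicin libraries and overlapped them. Its log2 fold change ranged from 0.065 to 0.93 with 1 library left out, and that of ZNF292 from -0.80 to -0.082. ZNF687, ZNF592 and ZNF532 form a complex with the chromatin reader ZMYND8 and had log2 fold changes of 0.34 (SE 0.17), -0.37 (SE 0.15) and -0.20 (SE 0.15). ZNF592 was at 58.8 and 71.9 CPM in DMSO against 51.7, 48.5 and 50.9 CPM, without overlap. ZNF410, which in erythroid cells has CHD4 as its main target, had a log2 fold change of 0.05 (SE 0.21), and ZNF217, a co-repressor subunit amplified in breast cancer, one of 0.00 (SE 0.19). The others were ZNF292 (-0.47, SE 0.22), ZNF652 (-0.23, SE 0.25), ZNF644 (-0.23, SE 0.18), ZNF148 (-0.19, SE 0.15), ZNF462 (-0.10, SE 0.24) and ZNF827 (0.04, SE 0.18), all as log2 fold changes.

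Abundant ZNF genes were among those with lower and those with higher values. The 6 with the highest DMSO CPM were ZNF207, ZNF664, ZNF638, ZNF609, ZNF703 and ZNF106. Per kilobase of transcript, ZNF664 was at 40.5 and ZNF703 at 33.6 CPM per kb in DMSO, while ZNF207 with its long transcript was at 14.1 CPM per kb. ZNF664, which is read through into RFLNA in some transcripts, was at 193 and 156 CPM in DMSO against 129, 126 and 119 CPM, a log2 fold change of -0.49 (SE 0.15, adjusted p = 0.0789 in edgeR). ZNF703, a transcriptional co-repressor amplified in luminal breast cancer, was at 139 and 84.1 CPM in DMSO against 182, 153 and 183 CPM, a log2 fold change of 0.63 (SE 0.24). With 1 library left out this value ran from 0.30 (DMSO replicate 2 left out) to 1.03 (DMSO replicate 1 left out). ZNF106, an RNA-binding protein, was the most even of these, at 105 and 108 CPM in DMSO against 111, 121 and 121 CPM. Divided into 3 bins by the DMSO count sum, the ZNF genes had median log2 fold changes of -0.03, -0.19 and -0.19 from the lowest to the highest bin. The DMSO counts enter the cutoff, the bins and the fold changes alike, so this order is not separate evidence of a link with abundance.

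Some ZNF genes differed more between replicates than between treatments. ZNF175, a KRAB gene chosen here after its values were seen, was at 17.6 and 43.8 CPM in DMSO replicates 1 and 2, at 17.3 and 46.7 CPM in the 0.2 μM replicates 1 and 2, and at 17.0 CPM at 0.34 μM. The libraries numbered 2 were high and the others low under both treatments, and its log2 fold change over DMSO was -0.19 with a standard error of 0.55. ZNF561, a KRAB gene of chromosome 19 with the second largest higher value, carried both patterns. It was at 51.3 and 23.2 CPM in DMSO, 85.2 and 55.8 CPM at 0.2 μM and 120 CPM at 0.34 μM, so that replicate 2 was the lower library in each pair. Its log2 fold change was 1.22 (SE 0.43, adjusted p = 0.107 in edgeR), and in a fit of the 0.2 μM and DMSO libraries with a replicate block it was 1.00 with an adjusted p of 0.00598. Over the 98 genes the difference between the DMSO libraries and that between the 0.2 μM libraries had a Pearson correlation of 0.48 across genes, which are not independent replicates. The median absolute log2 difference was 0.30 between the DMSO libraries and 0.24 between the 0.2 μM libraries, but 0.07 between the 0.34 μM library and 0.2 μM replicate 1.

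The doses were compared side by side. Both comparisons with DMSO share the DMSO libraries, and the 0.34 μM group has no replicate, so that its spread was assumed to be that of the other groups. The median log2 fold change of the ZNF genes was -0.12 at 0.2 μM and -0.12 at 0.34 μM, and 0 passed 0.01 in edgeR at either dose, where 1.21% and 0.627% of all genes tested did. At an unadjusted p under 0.05 there were 12 and 10 of the 98, against 19.3% and 17.8% of all genes. Between 0.34 and 0.2 μM 0 ZNF genes passed 0.01 in edgeR and 0 in DESeq2. None had an unadjusted p under 0.05 in edgeR, where 0.155% of all genes tested did, and 1 had in DESeq2. The smallest p between the doses was that of ZNF367, with a log2 difference of -1.34 (SE 0.67) and an adjusted p of 1.00 in edgeR. For ZNF561 the log2 difference was 0.77 (SE 0.47) and for ZNF219 it was 0.44 (SE 0.33). Only 4 ZNF genes differed by more than 0.5 between the doses, ZNF367, ZNF561, ZNF175 (-0.91) and ZNF714 (-0.57). ZNF175 had 17.0 CPM at 0.34 μM and 17.3 CPM in 0.2 μM replicate 1, and ZNF714 had 7.50 and 7.66 CPM. Their difference between doses thus rested on 0.2 μM replicate 2. Between the 0.34 μM library and 0.2 μM replicate 1 alone, 1 ZNF gene differed by more than 0.5. Dose and replicate number cannot be told apart here. The standard errors leave room for differences of that size in most other genes.

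Next, the ZNF genes were divided by what their proteins and loci share. The number of zinc fingers matched in the translated transcripts of 95 genes ran from 0 to 40. A KRAB pattern was found in 24 of the 95 proteins, although a short pattern misses diverged domains. The 24 genes had a median log2 fold change of -0.11, 14 lower and 10 higher, and the 71 others one of -0.14, 48 lower and 23 higher. Neither set had a call at 0.01 in edgeR, and at an unadjusted p under 0.05 there were 5 (20.8%) and 19 (26.8%), against 30.8% of all genes tested. The 5 genes with a SCAN pattern had a median of -0.21. The 55 genes with 8 or more fingers had a median of -0.11 and the 40 with fewer one of -0.18, a difference that was not tested.

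On chromosome 19 lay 22 of the 98 genes, 18 of them lower and 4 higher with a median log2 fold change of -0.19, while the 76 on other chromosomes had 47 lower and 29 higher with a median of -0.10. The 384 other genes of chromosome 19 with the same cutoff had a median of 0.00. Under the cutoff, the 190 tested ZNF genes of chromosome 19 had 105 lower and 85 higher with a median of -0.06. Of the 22 genes, ZNF714 and ZNF480 (9.09%) passed an adjusted p of 0.05 in edgeR, both lower, where 7.48% of all genes tested were lower. In 3 bins of the genomic span of the gene, the ZNF medians were -0.03 for genes of 2469 to 18741 bases, -0.19 for the middle bin and -0.21 for genes of 42213 to 467802 bases. Other genes in the same span ranges had medians of 0.03, -0.03 and -0.13, so that longer genes had lower values in both sets. Of the 98 genes 56 overlap another annotated gene and 42 do not, with medians of -0.13 in each set.

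At the cutoff itself, ZNF251 (1021 counts in the DMSO libraries together), ZNF365 (1003) and ZNF3 (1003) lay just inside and ZNF268 (985), ZNF107 (982) and ZNF605 (981) just outside. Their log2 fold changes were 0.08, 0.49 and 0.03 inside and -0.17, -1.34 and -0.32 outside. ZNF107 was at 19.8 and 18.2 CPM in DMSO against 6.15, 10.5 and 5.81 CPM after doxorubicin, so that among the 98 genes above the cutoff only ZNF367 and ZNF714 had a larger absolute log2 fold change.

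Finally, 25 co-repressor, heterochromatin and chromatin assembly genes, called KRAB partner genes here, were described. The list was chosen with earlier results of these data known, so its share of calls is not a test. Of the 25 genes, 7 passed 0.01 in edgeR, all lower, where 2.73% of all genes tested were called lower. TRIM28, the co-repressor that binds the KRAB domain, was at 208 and 413 CPM in DMSO against 307, 304 and 301 CPM, so that the DMSO libraries lay on both sides of the doxorubicin libraries and the log2 fold change was -0.03 (SE 0.28). SETDB1, the methyltransferase it recruits, was at 32.2 and 30.1 CPM against 33.9, 37.0 and 32.5 CPM, a log2 fold change of 0.14 (SE 0.15).

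The 7 genes that fell were CBX1, CBX5, RBBP7, DNMT1, UHRF1, CHAF1A and CHAF1B, where RBBP7 was named with its values known. CBX5 (HP1 alpha) was at 520 and 620 CPM in DMSO against 208, 219 and 168 CPM, a log2 fold change of -1.52 (SE 0.18, adjusted p = 0.00384 in edgeR's quasi-likelihood test). CBX1 (HP1 beta) fell by 1.17 on the log2 scale and CBX3 (HP1 gamma) had a log2 fold change of -0.82 with an adjusted p of 0.0366 in edgeR, short of the threshold. UHRF1, which guides the maintenance DNA methyltransferase DNMT1 to replicating DNA, was at 105 and 220 CPM against 18.4, 24.03 and 12.01 CPM, a log2 fold change of -3.16 (SE 0.39). DNMT1 itself fell by 1.65 on the log2 scale and the histone chaperone gene RBBP7 fell by 1.06. CHAF1A and CHAF1B, subunits of the chromatin assembly factor that acts at replication forks, had log2 fold changes of -2.28 and -2.82. Fewer of the 25 passed 0.01 with a library left out, from 0 without DMSO replicate 2 and 0 without 0.2 μM replicate 2 to 2 without 0.2 μM replicate 1, 2 without the 0.34 μM library and 4 without DMSO replicate 1. DESeq2 called 10, all lower.

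**Figure D4:**
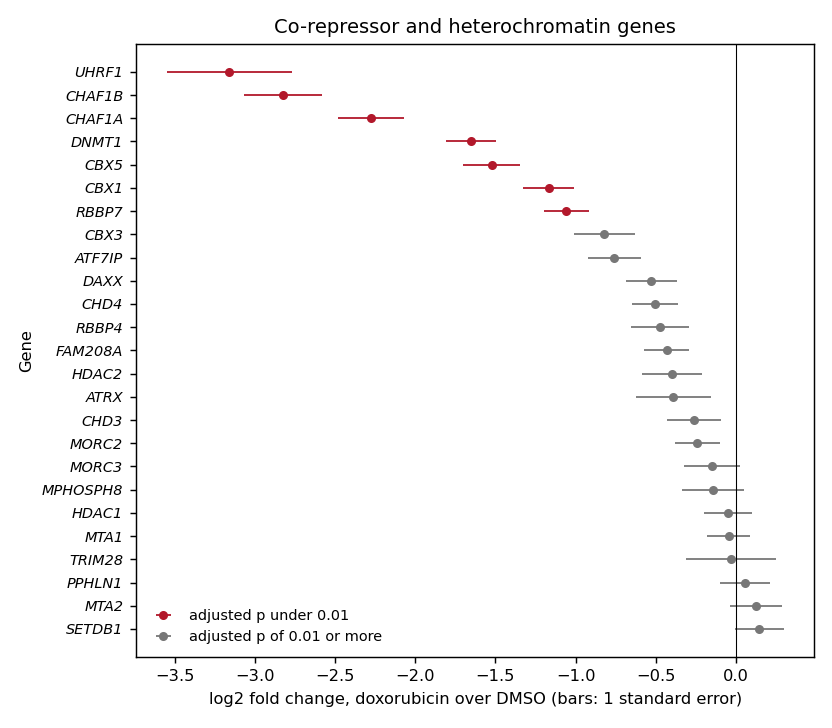
Log2 fold change of doxorubicin over DMSO (horizontal axis) for 25 co-repressor and heterochromatin genes (vertical axis), with bars of 1 standard error from edgeR. The 7 coloured genes had an adjusted p under 0.01 and all are lower, from RBBP7 at -1.06 to UHRF1 at -3.16, while TRIM28 and SETDB1 lie near 0.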

How the data were processed

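RNA-seq of RPE1 cells (2 DMSO libraries, 2 of 0.2 μM and 1 of 0.34 μM doxorubicin) was analysed. The authors enriched poly-A RNA with a stranded kit, mapped reads to hg38 with STAR, counted them per gene with featureCounts of Rsubread, and deposited raw counts. Versions, the strand setting and the treatment of reads with several matches were not given in the sources used here. A deposited table of the authors' own DESeq2 comparison was not used. The study states its libraries as biological replicates. The p-values measure the spread between these libraries and assume that they are independent.

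Counts were fitted in R 4.3.3 with edgeR 4.0.16 (TMM, minimum count 10, minimum total 15, quasi-likelihood test, Benjamini-Hochberg over 14187 genes). All 98 ZNF genes passed this filter. Alternatives used DESeq2 1.42.0, limma 3.58.1 with voom, other normalizations, filters, dose groups and cutoffs, a replicate block, and leaving out each library. The fits were tested on simulated data. Standard errors are the absolute log2 fold change over the square root of F. Library totals were 23773061 to 36725345 and normalization factors 0.975 to 1.04. The chi-square per degree of freedom was 117 between the DMSO libraries and 75.3 between the 0.2 μM libraries. Between the 0.34 μM library and 0.2 μM replicates 1 and 2 it was 9.01 and 74.1. All were therefore counted as separate libraries, although this does not show that they are independent.

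Symbols were placed on GRCh38 with RefSeq (all 98 ZNF genes). Of the 26485 genes, 23752 matched by symbol, 1566 by an older symbol and 1167 not at all. No RefSeq protein table was used; KRAB, SCAN and finger patterns were searched in coding sequences of GENCODE v44 (lifted annotation) for 95 of the 98. Transcript lengths come from the same annotation. The ZNF genes, role lists and partner list were chosen with earlier results of these data known. Named genes are the 6 higher and 6 lower with the smallest p (none passed the threshold), the 6 highest in DMSO and those of the role lists. Also named are those nearest the cutoff, the 3 with the smallest p between doses, listed partner and marker genes, and CDKN1A. Where another gene is named, the text says that it was chosen with its values known.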

Additional observations from a re-analysis of the deposited data

How the results depend on the processing

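In edgeR 0 ZNF genes passed 0.01. The count was also 0 with limma voom, other normalizations and other cutoffs. At single doses and with 1 library left out it was 0 too (0 to 0), which says nothing about stability, since fewer libraries allow fewer calls. DESeq2 called 9, no low-count filter 3, an adjusted p of 0.05 gave 9, and the replicate block in the 0.2 μM and DMSO libraries 4. With 2 pairs that share only a number, the pairing is not established by the labels; replicate differences correlated at 0.53 over all genes tested. The other genes of the same cutoff had 416 calls, and 1264 with DESeq2, 680 with no filter, 139 with 0.2 μM only, 74 with 0.34 μM only, 734 with the replicate block and 1187 at 0.05. With 1 library left out they had 46 to 185, the lowest without DMSO replicate 2. The median log2 fold change of the ZNF genes ranged from -0.23 to -0.074 with 1 library left out, and the calls among 25 KRAB partner genes from 0 to 4.

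Values near 0 changed sign. ZNF217 became 0.019 with limma voom, 0.041 with upper-quartile factors, 0.0020 with no filter and 0.077 with 0.34 μM only, where ZNF451 became -0.034 and ZNF3 -0.013. TRIM28 became 0.051 with limma voom, 0.014 with upper-quartile factors and 0.063 with the replicate block. With 1 library left out the ranges were -0.073 to 0.22 for ZNF451, -0.11 to 0.11 for ZNF655, -0.24 to 0.37 for ZNF410, -0.26 to 0.28 for ZNF217, -0.59 to 0.20 for ZNF652, -0.40 to 0.22 for ZNF462, -0.20 to 0.30 for ZNF827, -0.24 to 0.47 for ZNF251, -0.25 to 0.34 for ZNF3 and -0.45 to 0.53 for TRIM28. The cause was not tested. With 2 against 3 libraries, the standard errors of the ZNF genes (0.13 to 0.56) limit what can be called.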

Other observations

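Among the ZNF symbols under the count cutoff, 351 were tested and 80 were not. Their median log2 fold change was -0.06, with 160 higher and 191 lower. None passed 0.01 in edgeR, 57 (16.2%, 25 higher and 32 lower) had an unadjusted p under 0.05 against 30.8% of all genes tested, and DESeq2 called 17 (4.84%) against 14.1%. The 6 with the smallest p, named after their values were seen, were ZNF425, ZNF184, ZNF337, ZNF100, ZNF273 and ZNF79. ZNF425 was at 3.89 and 3.25 CPM in DMSO against 9.05, 10.7 and 10.1 CPM after doxorubicin (log2 fold change 1.48, SE 0.23). ZNF184 was at 15.2 and 13.7 CPM in DMSO against 6.57, 6.24 and 6.37 CPM (log2 fold change -1.18, SE 0.19). In both, the doxorubicin libraries lay close together and apart from DMSO. The log2 fold change was 1.15 for ZNF337 (SE 0.19), -1.91 for ZNF100 (SE 0.33), -2.02 for ZNF273 (SE 0.37) and 1.26 for ZNF79 (SE 0.25).

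ZNF714 has neighbours with lower values. Chromosome 19 was divided into bins of 5 Mb, and the bin from 20 to 25 Mb (GRCh38), singled out after its values were seen, held 17 tested ZNF genes, 15 lower and 2 higher, and their median was -0.51 on the log2 scale. In the other bins with 5 or more tested ZNF genes the medians lay between -0.28 and 0.05. At an unadjusted p under 0.05 in edgeR there were 7 of the 17, all lower, against 30.8% of all genes tested in either direction. At an adjusted p of 0.05 there were 4, where 7.48% of all genes were lower, namely ZNF714, ZNF100 (-1.91), ZNF85 (-1.52) and ZNF738 (-1.25). ZNF100 was at 6.71 and 9.44 CPM in DMSO against 2.28, 2.70 and 1.49 CPM after doxorubicin. ZNF91, the repressor of SVA elements in the same bin, had a log2 fold change of -0.13 (SE 0.30), with 25.02 and 22.8 CPM in DMSO against 15.8, 31.4 and 18.4 CPM. ZNF91, ZNF85 and ZNF738 were named with their values known. These genes are close copies of each other, and shared reads could tie their counts together, which was not tested.

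In the same bin ZNF486 and ZNF681 followed the replicate number in opposite directions. ZNF486 had 166, 95 and 121 counts in DMSO replicate 1, 0.2 μM replicate 1 and the 0.34 μM library, against 7 and 3 in replicates 2 of DMSO and 0.2 μM. ZNF681 had 10, 4 and 8 counts in the former 3 libraries against 66 and 74 in the latter. Both genes were chosen after their values were seen.

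Sets of genes chosen by the symbols of other zinc finger families, with the same cutoff, also had no call at 0.01 in edgeR. Of all genes tested 4.02% passed, so 0 calls in sets of 4 to 19 genes is near that share. For the counts that follow, 30.8% of all genes tested had an unadjusted p under 0.05 in edgeR and DESeq2 called 14.1%. The median log2 fold change was -0.07 over the 19 ZBTB genes. An unadjusted p under 0.05 was found for 2 of the 19, and DESeq2 called 1, ZBTB1, named for that call, at -0.59. The 10 KLF genes had a median of -0.22, 2 had an unadjusted p under 0.05 and DESeq2 called 0, and the median of the 4 ZKSCAN and ZSCAN genes was 0.01. The 6 ZFP genes had a median of -0.25, with 1 at an unadjusted p under 0.05. The 5 symbols that begin with SP and a number, which include SP100 and SP110 besides the SP transcription factors, were all lower with a median of -0.43, 2 of them at an unadjusted p under 0.05, and DESeq2 called 0 in these last 3 families.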
